A study of Homo sapiens with 18 samples.

Results

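The proteins of the cytosolic ribosome are encoded by genes that are among the most highly transcribed of a growing cell, and 85 of the 23106 gene symbols in the deposited count tables belonged to it. They were taken by name, as every RPL or RPS symbol followed by a number, with an A, X, L or L1 suffix allowed, together with RPLP0, RPLP1, RPLP2 and RPSA. Of these, 52 code for proteins of the large subunit and 33 for proteins of the small subunit. Among them were 8 genes whose L or L1 suffix marks a second copy of another member, among them RPL3L, RPL7L1, RPL10L, RPL22L1, RPL26L1, RPL39L and RPS27L.

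The small subunit reads the mRNA and the large subunit joins the amino acids, and each ribosome holds a single copy of almost every ribosomal protein. Cells therefore tend to make these proteins in step. Most of their mRNAs start with a C followed by an unbroken run of pyrimidines, the 5′ terminal oligopyrimidine tract, through which the growth-regulating kinase mTORC1 and the RNA-binding protein LARP1 control how much of each mRNA is translated. Hypoxia is known to slow protein synthesis, in large part at that step, which a count of mRNA does not see. Ribosomal protein genes are also known for the many processed copies that they have left across the genome, so that short reads from them often match several places.

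PolyA+ RNA was sequenced from 3 human cell lines, each grown in normoxia and in hypoxia with 3 replicates per condition. HKC-8 is a line of kidney proximal tubule cells, and its hypoxic samples were held for 16 h at an oxygen level that the sample descriptions give as 0.5% and the titles as 0.1%. RCC4 is a renal carcinoma line that lacks a working VHL protein, the ubiquitin ligase part that marks hypoxia-inducible factor for destruction in normoxia. The RCC4 cells used here all carried a stably introduced wild-type VHL gene, in normoxia as well as in hypoxia, and their labels give 1.0% oxygen for 24 h. HepG2 is a hepatocellular carcinoma line, held at 0.5% oxygen for 16 h. The labels name no added gene for HKC-8 or HepG2. The study's methods give 0.5% oxygen for 16 h for every line, so the dose and time of RCC4 cells cannot be fixed here, and the responses of RCC4 and the other lines were not tested against each other. Nothing in the labels says whether replicates were separate cultures, so the p-values measure the spread between these samples, which may be technical.

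Each sample held between 40915980 and 97984260 counts, the most in HKC-8, where each library had been split over sequencing lanes. All 8 liver markers looked for (ALB, AFP, APOA1, APOB, FGB, TF, HNF4A and SERPINA1) reached at least 1 CPM, the count scaled to a common library total, in each HepG2 sample. Of 8 kidney epithelial markers, PAX8 and CDH16 were among the 3 that reached that level in all samples of HKC-8, 6 did in RCC4 and 4 in HepG2, while LRP2 was at 0 in normoxic HKC-8 cells. CA9 and NDRG1, textbook targets of hypoxia-inducible factor, checked the oxygen labels. CA9 rose by 4.92 on the log2 scale in HKC-8 and by 8.45 in HepG2 (edgeR adjusted p = 1.799e-06 and 4.034e-14), and reached at most 0.123 CPM in RCC4. The log2 fold change of NDRG1 was 4.72 for HKC-8, 3.74 for RCC4 and 3.56 for HepG2 (edgeR, adjusted p = 6.841e-06, 2.159e-27 and 6.938e-12).

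The start sites of the genes that the results turn on are given first, since they hold the element by which this family is known. RefSeq start sites on GRCh38.p14 were at hand for 67 of the 85 members, at 83 starts. In 47 of these (70.2%) at least 1 listed start was a C followed by 4 or more further pyrimidines, against 5.14% of all 27305 genes in the same table. Members without a listed start included RPL23, RPL23A, RPL30, RPL37, RPL39L, RPL3L, RPL5, RPL7, RPL8, RPS15A, RPS2 and RPS20. The lines below give the 15 bases before and the first 15 bases of the transcript for the members that fell most in hypoxia and for 3 members beside their second copies, with the pyrimidine run at the start in capitals.
RPS26 (chr12:56041903-56041932, plus strand): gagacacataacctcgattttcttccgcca
RPL24 (chr3:101686704-101686733, minus strand): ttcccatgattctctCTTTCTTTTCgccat
RPL22 (chr1:6199581-6199610, minus strand): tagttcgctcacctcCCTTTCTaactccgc
RPL22L1 (chr3:170870181-170870210, minus strand): cgcggccgtagcttcCTCTCTgctctcgcg
RPL26 (chr17:8383179-8383208, minus strand): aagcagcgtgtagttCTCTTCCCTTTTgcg
RPL26L1 (chr5:172958714-172958743, plus strand): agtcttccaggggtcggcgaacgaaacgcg
RPS27 (chr1:153990747-153990776, plus strand): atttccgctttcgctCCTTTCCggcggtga
RPS27L (chr15:63157463-63157492, minus strand): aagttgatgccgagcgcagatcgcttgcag
RPL24, RPL22, RPL26 and RPS27 each showed the tract, as did the copy RPL22L1. The copies RPL26L1 and RPS27L had a purine or a broken run at their listed starts, and so did RPL7L1 and RPL10L. RPS26 began with a purine at its listed start and carried a stretch of pyrimidines just behind it. A run that begins a few bases away from a listed start is not counted, so the share is of listed starts only.

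The core of the hypoxia response element was looked for in the same sequences, as ACGTG or GCGTG on either strand of the 300 bases around each start, where ACGTG on one strand and its reverse on the other may overlap. It was present for 51 of the 67 members (76.1%) and for 52.4% of all genes in the table. That background includes genes not expressed in these cells, and genes of like base composition were not compared. These are matches of letters in a window, and no binding was measured in these files.

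How much of the cell's mRNA the family made up was compared first. Members took 5.17% ± 0.146 of all counts in normoxic and 4.97% ± 0.221 in hypoxic HKC-8 cells (SD, n = 3 in this and each following group). RCC4 cells gave 5.77% ± 0.195 and 5.54% ± 0.0571. In HepG2 cells it was 6.65% ± 0.872 in normoxia and 5.87% ± 0.177 in hypoxia. The 3 normoxic HepG2 samples were far apart, at 6.70%, 7.49% and 5.75%, and the 3 hypoxic samples, between 5.75% and 6.07%, lay inside their range.

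The members moved together between replicates. In normoxic HepG2 replicate 2, 72 of the 79 members tested lay above their mean over the 6 HepG2 samples, with a median deviation of 0.24 on the log2 scale, whereas in normoxic replicate 3 only 4 did, with a median deviation of -0.16. The median SD of log2 CPM within normoxic HepG2 cells was 0.201 over the members and 0.109 over all genes, and within hypoxic HepG2 cells 0.061 and 0.080. HKC-8 showed a milder joint shift, with replicate 2 high in both conditions, at 0.13 in normoxia and 0.11 in hypoxia. Its median SD was 0.112 over the members and 0.123 over all genes in normoxia, and 0.123 and 0.136 in hypoxia. RCC4 was the steadiest line, with sample deviations between -0.06 and 0.04. Its median SD in hypoxia was 0.0266 over the members against 0.0649 over all genes, and in normoxia 0.064 against 0.065.

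**Figure D1:**
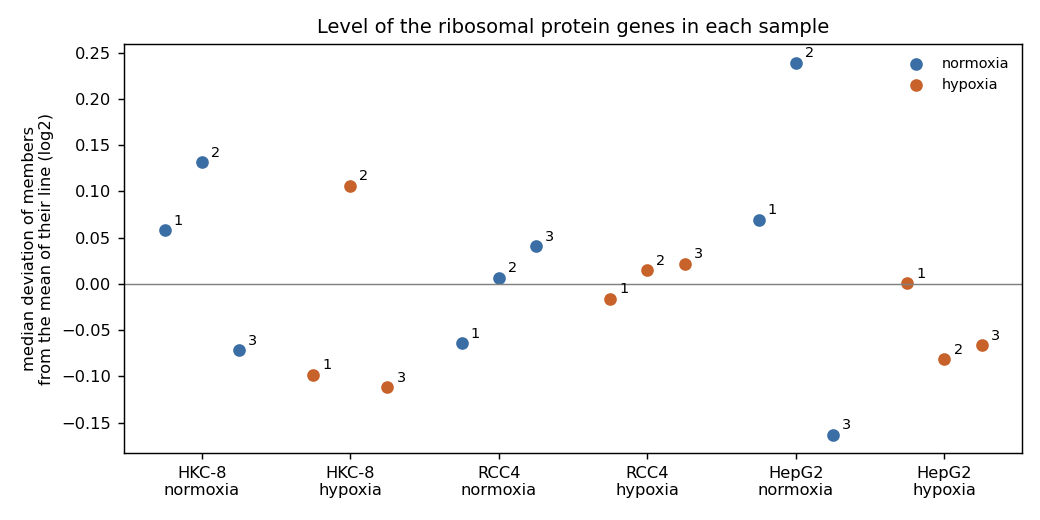
Median, over the ribosomal protein genes tested, of each sample's deviation in log2 CPM from the mean of the 6 samples of its cell line (y axis), for normoxic and hypoxic samples of each line, numbered by replicate (x axis). Normoxic HepG2 replicates 2 and 3 lie farthest apart, at 0.24 and -0.16, and all 6 RCC4 samples lie between -0.06 and 0.04.

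The main comparison of the study, hypoxia against normoxia, asked how oxygen shortage alters the transcripts of each line. Ribosomal protein mRNAs changed little. None of the 80 members tested in any line changed by 2-fold, and the median size of the change, whatever its direction, was 0.07 on the log2 scale for HKC-8, 0.07 for RCC4 and 0.14 for HepG2, against 0.22, 0.18 and 0.21 over all genes. RPS26 was the 1 member of the 79 tested in each line that fell in all 3, where 3.43% of all genes tested in each did (edgeR, quasi-likelihood test, adjusted p under 0.05). In these fits, which used no replicate block, 30 of the 80 members (37.5%) were called in at least 1 line and 50 in none. Of all genes tested, 62.7% were called in at least 1.

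RPS26, a small-subunit protein that sits at the mRNA exit channel and touches the bases before the start codon, lies on chromosome 12 at positions 56435135 to 56438481 of GRCh37. In HKC-8 cells it stood at 384.7, 409.9 and 315.4 CPM in normoxia and at 249.7, 315.3 and 225.3 CPM in hypoxia. In RCC4 cells the values were 140.5, 143.1 and 149.6 CPM against 124.3, 132.0 and 127.4 CPM. In HepG2 cells they were 201.4, 234.5 and 178.3 CPM against 157.8, 147.6 and 151.1 CPM. Each hypoxic sample thus lay below each normoxic sample of its line, by a narrow margin in HKC-8. The log2 fold change was -0.49 ± 0.139 (SE, adjusted p = 0.03771) in HKC-8, -0.17 ± 0.0379 (adjusted p = 5.26e-04) in RCC4 and -0.43 ± 0.0842 (adjusted p = 0.001355) in HepG2 cells by edgeR's quasi-likelihood test. The HepG2 call held under all 15 alternatives tried, and that in RCC4 under 14 of 15. In HKC-8 cells RPS26 no longer passed (adjusted p up to 0.1355) without normoxic replicate 1, normoxic replicate 2, hypoxic replicate 1 or hypoxic replicate 3, and a fit blocked on the replicate number kept the call (log2 fold change -0.50, adjusted p = 1.775e-04). Of the 50-base words of its transcript, 45.0% also occur elsewhere in GRCh37.

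In HKC-8 cells, 2 of 80 members fell and none rose in the main fit, which used no replicate block. Of the 13536 genes tested, 9.12% fell and 11.2% rose. Both shares of the members were below those of all genes tested. The median log2 fold change of the members was -0.07, with 64 of 80 below 0, against 0.00 over all genes. Hypoxic and normoxic samples did not overlap for 1 member that was higher and 8 that were lower, where 20% and 19.1% of all genes were so placed. With the replicate number as a block, which the pairing check called for in this line, 1 member rose and 11 fell, where 21% and 21.6% of all genes did. Without any 1 of normoxic replicates 1 and 2 and hypoxic replicates 1 and 3, no member fell, where 2.37% to 4.94% of all genes did.

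RPL24, which forms a bridge from the large to the small subunit, was the other member that fell in HKC-8 cells. Its normoxic samples were at 613.3, 564.3 and 501.2 CPM and its hypoxic samples at 451.0, 473.2 and 420.9 CPM. The groups did not overlap, and the log2 fold change was -0.32 ± 0.0949 (SE, edgeR adjusted p = 0.04308). As for RPS26, the call was lost without any of the 4 samples named above, and it was also lost with an offset for transcript length and GC content (adjusted p up to 0.1738 over these settings). In RCC4 cells RPL24 was at -0.01 (adjusted p = 0.846) and in HepG2 at -0.22 (adjusted p = 0.06544), or at -0.32 (adjusted p = 0.001788) without HepG2 normoxic replicate 3.

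The other members called with the block in HKC-8 were RPL26L1 (-0.33, adjusted p = 0.009029), RPL7L1 (-0.22, adjusted p = 0.009626), RPL17, RPL6, RPL4, RPL35A, RPS13, RPS25 and RPL23, each lower, and RPL39L, which was higher by 0.33 (adjusted p = 0.0421). They are named here because that fit called them, after their values were seen. RPL39L, a copy of RPL39 best known from the testis, had only 3.88 to 5.34 CPM in normoxic and 4.99 to 6.52 CPM in hypoxic samples of the line.

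In RCC4 cells more members were called, in smaller steps. Of 80 members, 20 rose and 6 fell, against 25.9% and 24.2% of the 12811 genes tested. The 20 are a share near the background and the 6 are below it. The median of the members was 0.00, with 42 above and 38 below 0, and the largest change in either direction was 17.3%. Groups did not overlap for 20 members that were higher and 8 that were lower, where 28.8% and 27.6% of all genes were so placed. In a single fit of all 18 samples, which takes 1 spread for the 3 lines, no member was called in RCC4, at adjusted p of 0.083 for RPS7. That fit also called a smaller share of all genes in RCC4 than the main fit did, as given in the closing section on processing. Without normoxic replicate 1, the sample with the lowest member levels of the line, 14 members rose and 16 fell, where 23% and 21.8% of all genes did.

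RPS7, a small-subunit protein known to bind MDM2, rose most. It was at 402.3, 421.1 and 455.8 CPM in normoxia and at 487.4, 506.2 and 506.5 CPM in hypoxia. Every hypoxic sample was above every normoxic one, with a log2 fold change of 0.23 ± 0.0384 (SE, edgeR adjusted p = 2.765e-05). RPS15A followed at 0.23 (adjusted p = 1.818e-05), with 507.4, 541.8 and 570.4 CPM against 633.5, 625.8 and 633.5 CPM.

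RPL9 (0.20), RPL13A (0.17) and RPL5 (0.15) were the next of the members that rose in RCC4 without overlap of the groups. RPL13A is known for a second role in silencing inflammatory mRNAs, and RPL5 for carrying the 5S rRNA. RPL9 and RPS7 share 90.0% and 76.4% of their 50-base words with other places in GRCh37, and how far this moved their counts was not tested. These 5 calls held in each fit that left out a sample, and failed in the fit of all 18.

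The members that fell in RCC4 besides RPS26 included parts of the stalk. RPLP1, 1 of the acidic proteins of the stalk that draws elongation factors to the large subunit, was at 630.3, 678.2 and 673.7 CPM in normoxia and at 582.1, 612.7 and 611.6 CPM in hypoxia. Its groups did not overlap, and the log2 fold change was -0.13 ± 0.0344 (SE, edgeR adjusted p = 0.002413). Its partner RPLP2 was at -0.08 (adjusted p = 0.03752), a value that turned to 0.03 with an offset for transcript length and GC content, and the base of the stalk, RPLP0, at -0.03 (adjusted p = 0.4285).

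RPS15 (-0.15), RPS2 (-0.11) and RPL23A (-0.08) completed the members that fell. RPL23A lies at the exit of the peptide tunnel, and its call was lost without normoxic replicate 2 or 3 or hypoxic replicate 1 or 2. RPS15, RPS2 and RPL23A did not pass with an offset for transcript length and GC content.

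In HepG2 cells, 2 of 79 members rose and 6 fell, where 19.9% and 19.2% of the 13623 genes tested did. Both shares were below the background. The median of the members was -0.10, with 65 of 79 below 0, against -0.00 over all genes. Small-subunit members had a median of -0.15 and large-subunit members one of -0.07. Groups did not overlap for 3 members that were higher and 4 that were lower, where 24.8% and 25.2% of all genes were so placed. These counts depended on normoxic replicate 3, the sample in which nearly all members were low. Without it 49 of 79 members fell and none rose, where 21.1% and 21.3% of all genes did, and the median was -0.20. Without normoxic replicate 2, 4 rose and 4 fell, where 17.9% and 16.3% of all genes did, and the median was -0.01, and without hypoxic replicate 1 or 2 none rose, where 16% and 16.2% of all genes did.

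**Figure D2:**
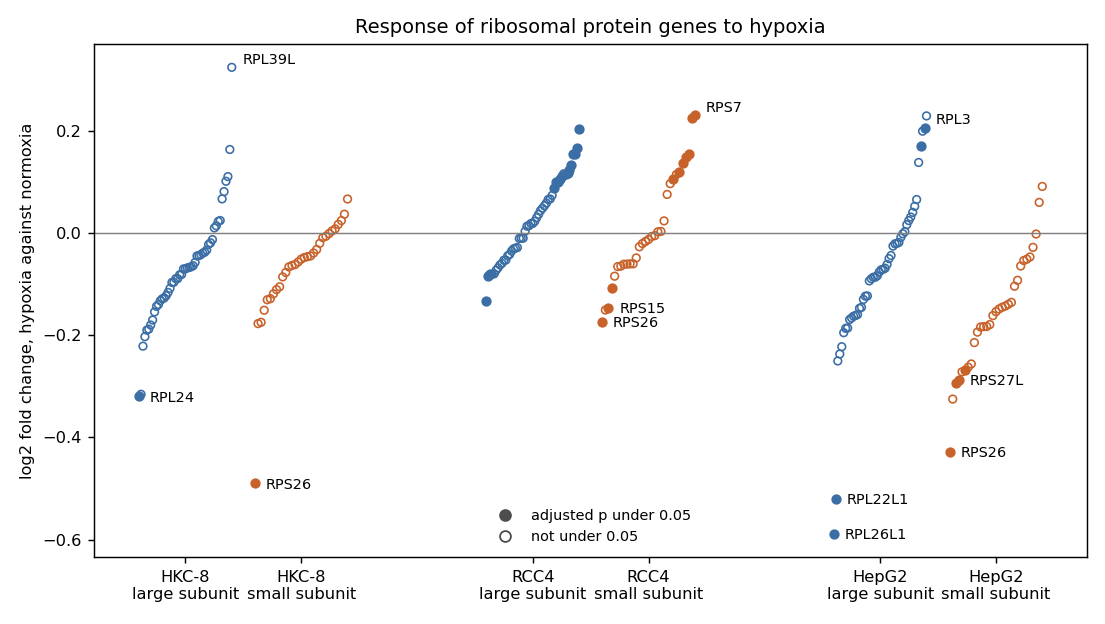
Log2 fold change in hypoxia against normoxia (y axis) of each ribosomal protein gene tested, ordered by value within the large and the small subunit of each cell line (x axis). Filled points had an adjusted p under 0.05 in fits without a replicate block, which 2 of 80 members reached in HKC-8, 26 of 80 in RCC4 and 8 of 79 in HepG2 cells.

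The 2 members that fell most in HepG2 were second copies, and another copy fell with them. RPL26L1, on chromosome 5 at 172385732 to 172396774 of GRCh37, was at 42.54, 53.47 and 39.25 CPM in normoxia and at 32.04, 29.10 and 28.78 CPM in hypoxia. RPL22L1, on chromosome 3 at 170582664 to 170587997, was at 57.67, 63.84 and 54.89 CPM against 43.98, 36.23 and 42.87 CPM. RPS27L, a copy of RPS27 that p53 is known to induce, was at 142.0, 155.6 and 126.1 CPM against 121.6, 112.6 and 113.0 CPM. In none of these 3 did hypoxic and normoxic samples overlap. Their log2 fold changes were -0.59 ± 0.102, -0.52 ± 0.0837 and -0.29 ± 0.0747 (SE; edgeR adjusted p = 5.22e-04, 3.065e-04 and 0.008144). All 3 calls held under each of the 15 alternatives tried.

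The partners of these copies did not pass with all samples in the fit. RPL26, which is also known to bind the mRNA of p53, was at -0.16 (adjusted p = 0.2212) in HepG2, RPL22 at 0.03 (adjusted p = 0.7006) and RPS27 at -0.16 (adjusted p = 0.2413). Without HepG2 normoxic replicate 3, RPL26 and RPS27 did fall, by 0.28 and 0.30 (adjusted p = 0.003936 and 0.001967), and RPL22 was at 0.01 (adjusted p = 0.9185). The difference between a copy and its partner was not tested. Of the 50-base words of RPL22 and RPL22L1, 35.1% and 1.08% are found elsewhere in GRCh37, whereas RPS27 has 95% and RPL26L1 53.1%. How many of these words a copy shares with its partner was not measured.

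In the kidney lines 1 of these 3 copies was called without the block. RPL22L1 rose by 0.12 in RCC4 (adjusted p = 0.02135), with 132.5, 145.0 and 150.3 CPM in normoxia and 153.0, 154.2 and 156.4 CPM in hypoxia, and was at -0.15 in HKC-8 (adjusted p = 0.4201). Its partner RPL22 also rose in RCC4, by 0.09 (adjusted p = 0.03854). The RCC4 call of RPL22L1 did not hold without normoxic replicate 1 or hypoxic replicate 3. RPS27L was at -0.06 in RCC4 (adjusted p = 0.276) and -0.12 in HKC-8 (adjusted p = 0.4348). RPL26L1 was at -0.06 in RCC4 (adjusted p = 0.2607) and -0.32 in HKC-8 (adjusted p = 0.1369), with the block value for HKC-8, which passed, given above. The responses of RPL22L1, RPL26L1 and RPS27L were not shown to differ between HKC-8 and HepG2 (edgeR interaction test, adjusted p = 0.1821, 0.4248 and 0.46). RPL7L1, whose partner RPL7 was at 0.00 in HepG2, did not pass in RCC4 (0.12, adjusted p = 0.1054) or HepG2 (-0.09, adjusted p = 0.3334).

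RPS27A, which is made as a fusion with ubiquitin, was called in opposite directions in RCC4 (0.11, adjusted p = 0.01844) and HepG2 (-0.29, adjusted p = 0.04565). Its groups overlapped in both lines, with 1482, 1834 and 1255 CPM against 1332, 1211 and 1187 CPM in HepG2. Neither call is firm, since the first was lost without RCC4 normoxic replicate 1, normoxic replicate 2 or hypoxic replicate 2. The second was lost without HepG2 normoxic replicate 1 or 2 or any of the hypoxic replicates. RPS13 (-0.27, adjusted p = 0.04565), named as the last of the 6 members that fell in HepG2 after its values were seen, likewise overlapped.

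The 2 members that rose in HepG2 belong to the core of the large subunit. RPL3, which reaches toward the peptidyl transferase centre, was at 1701, 1697 and 1527 CPM in normoxia and at 1975, 1905 and 1800 CPM in hypoxia. RPL4, which lines the peptide exit tunnel, was at 1706, 1664 and 1601 CPM against 1930, 1818 and 1846 CPM. Neither gene's groups overlapped, and the log2 fold changes were 0.21 ± 0.067 (SE, edgeR adjusted p = 0.02641) and 0.17 ± 0.0605 (SE, edgeR adjusted p = 0.03934). RPL3 no longer passed without HepG2 normoxic replicate 3 or hypoxic replicate 1 or 2. RPL4 no longer passed without normoxic replicate 1 or 3 or any hypoxic replicate (adjusted p up to 0.1845).

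Both genes also rose in RCC4, RPL3 by 0.13 (adjusted p = 4.533e-04) and RPL4 by 0.10 (adjusted p = 0.006733), without overlap of the groups. In HKC-8, RPL3 was at -0.03 (adjusted p = 0.8352). RPL4 was lower in each hypoxic than in each normoxic HKC-8 sample, at -0.19 (adjusted p = 0.1415, or 0.02573 with the block). The listed starts of RPL3 and RPL4 do not meet the pyrimidine rule.

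Other members with known roles beside translation were looked at next. RPL11, which with RPL5 and the 5S rRNA holds MDM2 in check when ribosome assembly fails, was at 0.02, 0.01 and 0.04 in HKC-8, RCC4 and HepG2 (adjusted p = 0.8798, 0.7558 and 0.6513). RPL5 was at -0.08 in HKC-8 and -0.02 in HepG2 (adjusted p = 0.5179 and 0.8703). RPS6, the classic substrate of S6 kinase, rose by 0.15 in RCC4 (adjusted p = 0.003998) with overlapping groups, and was at -0.07 in HKC-8 and -0.14 in HepG2 (adjusted p = 0.6363 and 0.3097). RPSA, also known as the precursor of the laminin receptor, did not pass in any line, at -0.02, -0.06 and -0.06 (adjusted p = 0.889, 0.1139 and 0.5088). RPL10 and RPL39 did not pass in any line either. Without HepG2 normoxic replicate 3, RPS6 fell by 0.25 (adjusted p = 0.01004) and RPL39 by 0.38 (adjusted p = 8.957e-04) in HepG2, where RPL39 had been at -0.24 (adjusted p = 0.1263).

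Members with and without a pyrimidine run at a listed start were set side by side, without a test. Their medians were -0.05 over 46 members with and -0.12 over 19 without in HKC-8, 0.01 and 0.10 in RCC4, and -0.09 and -0.13 in HepG2. The order of the medians thus differed between lines.

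Of the 79 members tested in all lines, 27 were below 0 in each and 4 above 0 in each. Line by line, 64 of 80 members were below 0 in HKC-8, 38 of 80 in RCC4 and 65 of 79 in HepG2. Whether the 27 exceed what these tallies alone would give was not tested, and the share over all genes was not taken. Across these members, Pearson's r between the log2 fold changes was 0.39 for HKC-8 and HepG2, 0.15 for HKC-8 and RCC4 and 0.02 for RCC4 and HepG2. The members are not independent points, since those of a line share its 6 libraries.

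Only the responses of HKC-8 and HepG2, which share an oxygen level and time by their descriptions, were tested against each other. Of 80 members, 1 differed, lower in HKC-8, against 5.02% of 15046 genes that were lower and 4.28% that were higher in HKC-8. This was RPL4, with a difference of -0.36 ± 0.101 (SE, edgeR interaction test, adjusted p = 0.03502). With the replicate number as a block 3 members differed, each lower in HKC-8, where 11% of all genes were. The call was lost in 9 of the 12 fits that each left out 1 sample, namely those without HKC-8 normoxic replicate 1 or 2, HKC-8 hypoxic replicate 1 or any of the 6 HepG2 samples. For RPS26 the difference was -0.07 ± 0.177 (adjusted p = 0.888), an SE too wide to show that the lines respond alike.

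The rest of the translation machinery gives a measure for the family, from a list of 66 symbols of other ribosomal genes and translation factors. Of these, GNB2L1 and RACK1 are the older and newer symbol of the same gene. In HKC-8, 3 of 65 tested rose and 12 fell, in RCC4 15 of 65 rose and 17 fell, and in HepG2 11 of 64 rose and 17 fell. These are 23.1%, 49.2% and 43.8%, near the 20.4%, 50.1% and 39.1% of all genes called in either direction, where members reached 2.50%, 32.5% and 10.1%. FAU, which codes for the ubiquitin-like fusion of the small-subunit protein eS30, fell in RCC4 (-0.14, adjusted p = 0.002649) and HepG2 (-0.32, adjusted p = 0.009633) and was at -0.19 in HKC-8 (adjusted p = 0.3642).

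EEF2, the elongation factor that moves the ribosome along the mRNA, rose by 0.12 in RCC4 and by 0.42 in HepG2 (edgeR adjusted p = 0.001403 and 2.19e-04). PABPC1, the poly(A)-binding protein, rose by 0.22 and 0.32 (edgeR adjusted p = 1.524e-06 and 0.001197). Neither EEF2 (0.15) nor PABPC1 (0.13) passed in HKC-8 (edgeR adjusted p = 0.509 and 0.2963). Both mRNAs carry a known pyrimidine tract, as do those of EEF1A1 and TPT1, which passed in no line, nor did GNB2L1, the scaffold protein RACK1 of the small subunit. The highest value of the list was EIF4E3 (0.62, adjusted p = 0.1058) in HKC-8 and EEF1A2 in RCC4 (0.34, adjusted p = 5.998e-04) and HepG2 (1.65, adjusted p = 1.136e-05). The lowest was EIF3C (-0.92, adjusted p = 0.2868) in HKC-8, EIF2B3 (-0.40, adjusted p = 4.228e-06) in RCC4 and EIF5A2 (-0.78, adjusted p = 3.778e-05) in HepG2. Both extremes of HKC-8 had low counts. EIF3C was at 1.22, 3.74 and 0.61 CPM in normoxia and 0.63, 1.16 and 1.14 CPM in hypoxia, and EIF4E3 at 1.07 to 2.51 CPM.

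Between cell lines in normoxia, the counts of the members differed by more than they did with hypoxia. Sequencing depth was tied to cell line in these contrasts. Every normoxic HKC-8 library held at least 81597396 counts, and every normoxic library of the other lines at most 49594033. How far depth or the handling of the libraries contributed to the differences between lines was not tested. RCC4 against HKC-8 cells showed 41 of 80 members higher and 20 lower, where 39.4% and 41.4% of 14806 genes were. HepG2 against HKC-8 showed 49 higher and 11 lower (background 42.6% and 40.5%), and HepG2 against RCC4 39 higher and 18 lower (background 45.3% and 38.1%). The median size of the difference was 0.52, 0.53 and 0.42 on the log2 scale for the members and 0.97, 0.95 and 1.01 for all genes. The 3 contrasts share samples and are not independent. Changes of at least 2-fold were seen for 13 members higher and 3 lower in RCC4 than in HKC-8 (background 23.2% and 23.2%), 20 higher and 2 lower in HepG2 than in HKC-8 (26.3% and 20.8%) and 11 higher and 3 lower in HepG2 than in RCC4 (28.1% and 21.5%). Without HKC-8 normoxic replicate 3 or HepG2 normoxic replicate 2, 20 or 19 members were lower in HepG2 than in HKC-8, where 41.8% or 40.9% of all genes were. Without the latter sample 28 were lower than in RCC4, where 38.5% of all genes were.

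Since fragments that matched several places had been removed, a level is compared below only for 1 gene between lines, in CPM scaled over the 9 normoxic samples. RPS18, at the head of the small subunit, had the highest fold of HepG2 over each kidney line among the members. It stood at 1223, 1492 and 971.8 CPM in HepG2, at 27.69, 31.18 and 28.86 CPM in HKC-8 and at 17.85, 26.64 and 14.09 CPM in RCC4. HepG2 was 42.0-fold above HKC-8 and 62.8-fold above RCC4 (log2 5.39 ± 0.217 and 5.97 ± 0.225, edgeR adjusted p = 2.342e-11 and 1.106e-11). Both kidney lines lay far below HepG2 in every sample, and RCC4 lay below HKC-8 by 0.58 on the log2 scale (edgeR adjusted p = 0.01243). These are differences in counts, and whether the mRNA differs as much was not tested.

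RPS18 lies on chromosome 6 at 33239852 to 33244288 of GRCh37, in the major histocompatibility region. Of its protein-coding neighbours within 100000 bases, 10 had at least 1 CPM in normoxic HepG2 cells. All 10 were lower in both normoxic kidney lines, but they were picked by their HepG2 level, which favours that outcome. Of the neighbours left out, ZBTB22 had 12 to 21 counts in normoxic HKC-8, 0 to 4 in RCC4 and 3 in HepG2. COL11A2 had 2 to 6, 0 and 8 to 12 counts in the same order, and B3GALT4 had 0 in every sample. SLC39A7 had 3103 to 3225 counts in normoxic HepG2 samples and 0 in all 12 kidney samples, and RING1 had 510 to 575 against at most 4. HSD17B8 was likewise at 0 in all kidney samples, with 148 to 182 counts in normoxic HepG2. These genes are only listed with their counts, and whether the stretch was counted alike in the 3 lines was not tested.

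RPL9, the large-subunit protein uL6, stood at 1436, 1717 and 1239 CPM in HepG2, 183.5, 170.3 and 166.4 CPM in HKC-8 and 279.8, 302.0 and 315.3 CPM in RCC4. HepG2 was 8.44-fold above HKC-8 and 4.90-fold above RCC4 (edgeR adjusted p = 6.909e-12 and 1.096e-10). With 90.0% of its words found elsewhere, how far the counts of RPL9 miss its reads was not tested.

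Among the second copies, RPL39L, RPL22L1 and RPS27L stood at the ends of these contrasts. RPL39L had 26.31, 26.84 and 28.08 CPM in RCC4 and 3.81, 4.02 and 5.25 CPM in HKC-8, a 6.20-fold difference (adjusted p = 3.322e-10). HepG2 cells held 5 counts of it in 3 normoxic samples together, against 1109 in HKC-8 and 3809 in RCC4. Per count sequenced, HKC-8 was 115-fold above HepG2 (95% interval 49.3 to 356, counting error only) and RCC4 698-fold above (299 to 2150). Its partner RPL39 was at 294 CPM for HKC-8, 547 CPM for RCC4 and 524 CPM for HepG2.

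RPL22L1 was highest in RCC4, at 137.2, 150.0 and 153.5 CPM, with 60.63, 66.39 and 57.71 CPM in HepG2 and 28.72, 26.43 and 20.81 CPM in HKC-8. Its partner RPL22 ran in the opposite order, at 490.5 CPM ± 25.6 in HKC-8, 431.7 CPM ± 11.6 in HepG2 and 255.7 CPM ± 6.20 in RCC4 (SD, n = 3). The log2 difference between RCC4 and HKC-8 was 2.54 for RPL22L1 and -0.94 for RPL22 (edgeR adjusted p = 5.696e-11 and 7.725e-09). RPS27L rose in the order HKC-8, RCC4, HepG2, from 26.6 CPM ± 2.46 through 66.8 CPM ± 3.48 to 148 CPM ± 14.7, and each step passed (adjusted p = 6.966e-09 and 2.667e-08).

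Other members at the ends of these contrasts were RPS16, 3.19-fold higher in RCC4 than in HKC-8, and RPL41, the smallest ribosomal protein, 3.33-fold lower in RCC4 than in HKC-8 and 4.50-fold lower than in HepG2. RPL7L1 was 3.25-fold lower in RCC4 than in HKC-8. RPSA was 2.40-fold lower in HepG2 than in HKC-8. RPS4X was 2.52-fold higher in RCC4 than in HepG2. RPS26, the member that fell with hypoxia in every line, was also unequal between them, at 363 CPM ± 47.1 in HKC-8, 214 CPM ± 28.3 in HepG2 and 149 CPM ± 3.71 in RCC4 (SD, n = 3).

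A few members could not be followed. Across all 3 lines 5 members did not pass the filter on low counts, among them RPL10L with 0 to 1 counts over the 18 samples, RPL3L with 0 to 6 and RPL21 with 0 to 7. A count of 0 allows up to 3 counts, or 0.0306 to 0.0733 CPM depending on the sample, by counting error alone. RPL39L failed the filter in HepG2. All 50-base words of RPL21 were found elsewhere in GRCh37, and the part of this in its near-zero counts was not tested. The read length is not given in the sources used here, and words of 50 bases were chosen to describe the transcripts. The median over the 84 members with a transcript was 31.9%, and 28 had at least 50% of their words elsewhere. RPL38 had none.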

How the data were processed

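PolyA+ RNA from 18 samples (3 cell lines, normoxia and hypoxia, 3 replicates) was sequenced by the authors. By the submitters' processing notes and the methods, reads were trimmed with Trim Galore 0.3.3 and aligned to GRCh37 with TopHat2 2.0.8b and Bowtie 1.0.0. SAMtools 0.1.19 was used to drop fragments with several matches, and HTSeq 0.5.4p3 counted the rest in intersection-strict mode. The files deposited hold raw counts per gene symbol. Genes whose reads match several places are therefore undercounted, and values were compared within a gene only.

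Each line was fitted apart with edgeR 4.0.16 in R 4.3.3 (filterByExpr, TMM scaling, quasi-likelihood test, Benjamini-Hochberg adjustment over all genes tested, threshold 0.05). Line contrasts used the 9 normoxic samples and the interaction the 12 HKC-8 and HepG2 samples. CPM were scaled by TMM. The SE was taken from the fold change and its F statistic. Named members were the 5 highest and lowest called members per line without overlap of the groups, the 3 highest and lowest called in other contrasts, a list of stalk, 5S and paralog members, and those that failed the filter. A few genes of these lists are counted but not reported by name here. The members and lists were chosen with earlier results of these data known.

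Replicate numbers were checked as pairs by the correlation, across genes, of deviations from group means. In HKC-8 it was 0.18, 0.63 and 0.57, and same-numbered samples were taken as pairs in the fits with a block. The main fit of HKC-8 and the main interaction fit used no block and so left this pairing out. RCC4 and HepG2 samples were not taken as pairs, though each HepG2 sample also correlated best with its own number.

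Uniqueness is the share of 50-base words of 1 transcript per gene (GENCODE v44 lifted to GRCh37) found elsewhere on the chromosomes. Words that cross a splice junction count as unique unless a processed copy holds them. In simulated counts, edgeR recovered 81.2%, 92.4% and 90.9% of the 197 tested genes that had been changed by 1 on the log2 scale in the HKC-8, RCC4 and HepG2 simulations, and 9.09%, 4.71% and 8.21% of its calls there were on unchanged genes. No member changed that much with hypoxia. The alternatives tried were DESeq2 1.42.0, other size factors, TMM without the members, 2 other filters, 1 fit of all 18 samples, the replicate block, an offset for length and GC content, and each sample left out in turn.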

Additional observations from a re-analysis of the deposited data

Results flagged for a closer look

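RPL4 was flagged because its response differed between lines in the interaction test, being lower in HKC-8 than in HepG2 cells by 0.36 on the log2 scale (log2 difference -0.36, adjusted p = 0.03502). It was also flagged because its 3 hypoxic samples all lay below the 3 normoxic samples in HKC-8 (-0.19) and all above them in RCC4 (0.10) and in HepG2 (0.17). RPL6 was flagged for the same split between HKC-8 (-0.19, adjusted p = 0.1104) and RCC4 (0.10, adjusted p = 0.01376), and RPL22L1 for one between RCC4 (0.12) and HepG2 (-0.52). The differences that involve RCC4 cells were not tested, since the labels give that line another oxygen level and time. RPL6 was named here after its values were seen, and 87.4% of its 50-base words occur elsewhere in GRCh37.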

How the results depend on the processing

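The median log2 fold change of the members was between -0.14 and -0.02 in HKC-8, -0.03 and 0.04 in RCC4 and -0.20 and -0.01 in HepG2 over the alternatives. In HKC-8 these moves were smaller than the SD of the member median between replicates (0.133 in normoxia, 0.0993 in hypoxia). In HepG2 the largest moves, without normoxic replicate 2 or 3, were larger than that SD in hypoxia (0.0406) and smaller than in normoxia (0.184), and in RCC4 the move with the offset lay between both likewise (0.0292 and 0.0641). Counts of called members moved more, and the share of all genes called in the same fit follows each in parentheses. In HKC-8, where the replicate numbers paired the samples, the replicate block gave 1 member higher and 11 lower (21% and 21.6%), the block with an offset for transcript length and GC content 1 and 22 (17.3% and 31.7%), that offset alone 1 lower (17.1%), and 1 fit of all 18 samples 6 lower (16.4%). In RCC4 that fit gave 0 in both directions (12.2% and 9.27%) and the block with the offset 34 higher (22.6%). In HepG2 the block gave 4 higher and 11 lower (21.7% and 21.3%), the offset 1 and 14 (16.2% and 27.8%), the block with the offset 6 and 31 (18.9% and 31.8%), DESeq2 11 lower (19%) and no low-count filter 12 lower (14.7%). The interaction gave 3 members lower in HKC-8 with the block (11%), and HepG2 against HKC-8 cells 18 lower without a low-count filter (35.2%). The block changed no other count of called members by more than 1.5 times. In RCC4 and HepG2 the replicate numbers were not taken as pairs (same-number correlations -0.01, 0.02 and 0.03, and 0.23, 0.05 and 0.23). Each HepG2 sample nonetheless correlated best with its own number, as did each HKC-8 sample, and this was not so for all RCC4 samples.

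Leaving out 1 sample gave 0 to 3 members lower in HKC-8 (2.37% to 10.9% of all genes), 4 to 16 lower in RCC4 (20.8% to 22.4%), 0 to 4 higher and 4 to 49 lower in HepG2 (16% to 21.3% and 13.7% to 21.1%), 0 to 1 lower in HKC-8 in the interaction (3.1% to 6.21%), 10 to 20 lower in HepG2 against HKC-8 (39.1% to 41.8%) and 16 to 28 lower in HepG2 against RCC4 (36.3% to 40.1%). The cause was not tested.

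Of the values whose sign turned, RPLP2 in RCC4 alone had passed the test. With the offset, and with the block and the offset, the values were RPLP0 -0.00781 and -0.00931, RPL5 0.0603 and 0.0596, RPS6 0.0169 and 0.0141, RPS27 0.00917 and 0.00752 and EEF2 -0.044 and -0.0252 for HKC-8, RPLP2 0.0279 and 0.0278, RPS27 0.0296 and 0.0308, TPT1 -0.0231 and -0.022 and EEF1A1 -0.0381 and -0.0373 for RCC4 and RPL5 0.13 and 0.14 and RPL7 0.11 and 0.11 for HepG2. RPL7 in HepG2 was also at 0.000253 with DESeq2, 0.000255 with median-of-ratios size factors and 0.00206 with at least 10 counts in every sample. Leaving out 1 sample turned the sign in 40 further cases, none of a value that had passed. The ranges of the log2 fold changes over these fits of HKC-8 cells were RPLP0 -0.00907 to 0.12, RPLP1 -0.0502 to 0.24, RPLP2 -0.22 to 0.0104, RPSA -0.0701 to 0.0153, RPL11 -0.0363 to 0.0613, RPL39 -0.11 to 0.0273, RPL26 -0.064 to 0.0572, RPL3 -0.11 to 0.0158, GNB2L1 -0.0473 to 0.085, EEF1A1 -0.0683 to 0.0334, EEF2 -0.00611 to 0.27 and EIF3C -1.34 to 0.10. The ranges of the log2 fold changes over these fits of RCC4 cells were RPL39L -0.15 to 0.0122, RPS27 -0.0707 to 0.0496, RPL7 -0.00211 to 0.0369 and GNB2L1 -0.0165 to 0.0233. The ranges of the log2 fold changes over these fits of HepG2 cells were RPLP0 -0.19 to 0.000166, RPLP1 -0.18 to 0.0306, RPLP2 -0.18 to 0.0234, RPL5 -0.12 to 0.0774, RPL11 -0.0112 to 0.0757, RPS6 -0.25 to 0.00934, RPL7 -0.0441 to 0.0374 and TPT1 -0.0948 to 0.0523.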
